A study of Mus musculus with 12 samples.

Results

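The genes described here are 32 p53 target genes and DNA damage checkpoint genes, picked by symbol from the 16942 genes of an RNA-seq table of ICR mouse small intestine. All 32 were in the table, and 30 passed the filter on low counts, beside 12329 genes that passed it in all. The 2 that did not pass, Phlda3 and Eda2r, held 66 and 64 counts summed over the 12 libraries.

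The 12 libraries, made from total RNA, fell into 4 groups of 3: AOS0, AOS10, B+A0 and B+A10. The series' design text names busulfan and AOS as the treatments. AOS0 was therefore taken as untreated and AOS10 as AOS alone, B+A0 as busulfan alone, and B+A10 as busulfan with AOS. The labels give no unit for 0 and 10, and the sources used here state neither a busulfan dose, route or time of sampling nor the mice's age and sex. Nothing in the labels ties a library to an animal, so every p-value below measures the spread between libraries, which may be technical.

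The transcription factor p53 is held low in unstressed cells by the ubiquitin ligase Mdm2 and its partner Mdm4. After DNA damage the kinases Atm and Chek2 phosphorylate p53 and its partners, p53 accumulates largely by protein stabilisation, and it switches on genes for cell cycle arrest, DNA repair, cell death and its own inhibition, Mdm2 among them. Busulfan is an alkylating agent that cross-links DNA. In the intestine, p53 and its target Cdkn1a, which encodes the cyclin-dependent kinase inhibitor p21, are known chiefly from the response of crypt cells to irradiation and other damage.

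Library totals ran from 13560232 to 16818245 counts. On the first principal component of all tested genes, 2 of the 3 B+A0 libraries (replicates 2 and 3) stood apart from the third and from every other library, with scores of 20.4 and 29.1 against −17.6 to 10.6. Epithelial markers (Vil1, Epcam, Cdh1, Krt20, Krt8 and Cdx2) summed to between 9758 and 12116 CPM (counts scaled to the library's TMM-adjusted total) and were high in every library. Smooth muscle markers summed to at most 3.64 CPM, with all 5 of them at 0 in some libraries, and 1 of 4 endothelial markers was tested. Beside busulfan, the summed level of 11 T and natural killer cell markers moved: it was 164 to 283 CPM in AOS0, 154 to 197 in AOS10, 39.0 to 105 in B+A0 and 96.7 to 269 in B+A10. In bulk tissue, fewer cells of a type and less RNA per cell cannot be told apart.

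Promoter sequence is shown for Cdkn1a, the classical p53 target, and for Mdm2, Sesn1, Ccng1 and p53's own gene, Trp53, because the results below turn on how far these genes moved. RefSeq start sites with 250 bases before and 50 after (build GRCm38.p6) were matched for 25 of the 32 genes, in 34 windows. Each window was searched on both strands for the published p53 half-site consensus, which reads the same on either strand, allowing no mismatch. A match is a string of letters and was not measured as bound. The sequences run 5′ to 3′ on the gene's strand, with each half-site in capitals.
Cdkn1a: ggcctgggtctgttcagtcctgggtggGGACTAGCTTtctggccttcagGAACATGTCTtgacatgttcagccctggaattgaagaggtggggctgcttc
Mdm2: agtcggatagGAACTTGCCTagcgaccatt
Sesn1: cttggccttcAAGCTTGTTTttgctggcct
Ccng1: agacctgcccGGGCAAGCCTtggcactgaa
Trp53: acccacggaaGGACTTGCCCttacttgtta

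The Cdkn1a stretch lies at chr17:29090879-29090978 on the forward strand, from 100 bases to 1 base before the upstream of its 2 RefSeq starts, and all but its last bases lie before the gene in GENCODE vM21. The downstream start lies 2790 bases after the upstream one, and the counts do not tell which start was used. The Mdm2 stretch is chr10:117710925-117710954 and that of Ccng1 is chr11:40755452-40755481, both on the reverse strand and outside any annotated gene. For Sesn1 the stretch is chr10:41887256-41887285 on the forward strand, inside the gene and ahead of its downstream start, and for Trp53 it is chr11:69580274-69580303 on the forward strand, outside any annotated gene. A half-site was present in 11 of the 34 windows of these genes, and in 2745 of all 32851 RefSeq windows (8.36%). These genes were chosen as p53 targets, so the difference is no test. A pair of half-sites 0 to 13 bases apart, with no mismatch, was present in 24 windows of all genes (0.0731%), and Cdkn1a was the only one of the 25 to have it. In Cdkn1a, the bases directly after the second marked half-site meet the consensus in all but their first base, so they were left unmarked. Pairs with a mismatch and bases outside the windows were not searched. Neither the marked pair nor any single half-site was shown to be one that p53 uses. Sesn1 also has 2 RefSeq starts, and the counts do not tell which was used.

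The genes covered a wide range of transcript levels in every group. In the deposited values per transcript length, taken as FPKM, the highest medians over the 12 libraries belonged to Perp (107), which encodes an epithelial adhesion and apoptosis protein, Cdkn1a (77.1), Trp53 (73.2) and Ei24 (71.3). Sesn1, which encodes the stress protein sestrin 1, came next at 31.8. Ccng1, Gadd45a, Btg2, Fas, Mdm2 and Aen lay between 17.5 and 12.2. At the other end, Gdf15 had a median of 0.635, Plk2 0.58, Phlda3 0.215 and Eda2r 0.085. The ranges of Cdkn1a, Trp53 and Ei24 over the libraries overlapped, and that of Sesn1, from 22.1 to 42.5 FPKM, lay below them: Cdkn1a ran from 50.7 to 108 FPKM, Trp53 from 64.6 to 86.2 and Ei24 from 68.7 to 81.0.

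**Figure D1:**
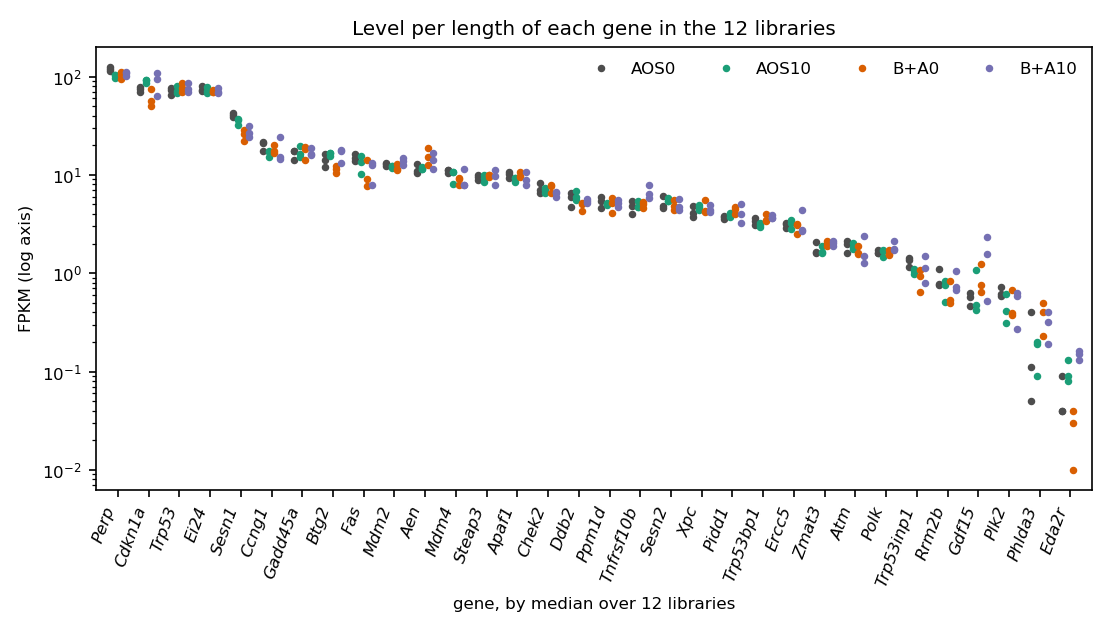
Level of each of the 32 genes per transcript length (FPKM, log axis), ordered by the median over 12 libraries; each point is a library, coloured by group. The points of the 4 groups lie close together for most genes, from Perp at a median of 107 to Eda2r at 0.085.

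The first question was whether busulfan alone (B+A0) differed from untreated intestine (AOS0) in these genes. Sesn1 fell, to 0.644 of the untreated level, and was the only one of the 30 tested genes to pass. The usual readouts of p53 activity did not pass in either direction: Cdkn1a was at 0.842 of the untreated level (95% interval 0.637 to 1.11), Mdm2 at 0.956 (0.850 to 1.07) and Ccng1 at 0.937 (0.745 to 1.18). Any rise of these 3 genes beyond 1.18-fold was outside those intervals. Among all 12329 genes tested in this comparison 1.94% fell and 1.7% rose, against 1 and 0 of the 30. At an unadjusted p under 0.05 there were 4 of the 30, where all genes gave 22.1%, and 7 of the 30 had groups that did not overlap, where all genes gave 29%. The median log2 fold change of the 30 was −0.04, beside −0.01 for all genes. The 7 were Sesn1, Aen, Mdm4, Trp53inp1, Pidd1, Gdf15 and Steap3. A single gene of 30 is near the share of all genes that fell.

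Sesn1 lies at chr10:41810574-41908436 in RefSeq (GRCm38.p6). It measured 94.6, 106 and 104 CPM in AOS0 and 73.6, 65.2 and 57.1 in B+A0. Every busulfan library was below every untreated one. The log2 fold change was −0.63 with a standard error of 0.11 (adjusted p = 0.0130, edgeR quasi-likelihood test with Benjamini-Hochberg adjustment over all tested genes, n = 3 against 3). Without AOS0 replicate 3 the adjusted p was 0.0541, and without B+A0 replicate 3 it was 0.0756. With both B+A0 libraries that stand apart left out, an alternative chosen after seeing the data, the log2 fold change was −0.46 (adjusted p = 0.352), resting on 1 B+A0 library.

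The same libraries differed in cell markers. T and natural killer cell markers fell in 7 of 11 genes, with a median log2 fold change of −1.72, and all 5 tested mast cell markers fell, from a summed 65.7 to 147 CPM in AOS0 to 23.0 to 26.4 in B+A0. Enterocyte markers summed to 8500 and 8903 CPM in B+A0 replicates 2 and 3, the libraries with the lowest Sesn1, against 16743 in replicate 1 and 12113 to 14574 in AOS0; none of the 8 passed. In B+A0 replicate 1, with enterocyte markers above the AOS0 range, Sesn1 was at 73.6 CPM, below all AOS0 libraries. That library's T and natural killer cell markers, at 105 CPM, were below the 164 to 283 of AOS0. Its mast cell markers, at 23.0 CPM, were also below the AOS0 range. The part of cell composition in the change of Sesn1 was not tested.

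Aen, which encodes a p53-induced nuclease active in apoptosis, was measured at 27.8, 24.0 and 23.4 CPM in AOS0 and at 29.6, 33.2 and 42.7 in B+A0. Its groups did not overlap, and its log2 fold change of 0.49 ± 0.15 (standard error, as after every ± below) did not pass after adjustment (adjusted p = 0.0833 by edgeR). DESeq2 called Aen, as did edgeR without B+A0 replicate 1 (0.60, adjusted p = 0.0296). Mdm4, the partner of Mdm2, read 75.2, 72.3 and 78.1 CPM in AOS0 and 64.2, 61.1 and 56.4 in B+A0, also without overlap (−0.31 ± 0.13, adjusted p = 0.190). Trp53inp1, which encodes a stress-induced nuclear protein that promotes p53 activity, read 5.89, 7.41 and 7.25 CPM against 5.02, 5.60 and 3.46 (−0.54 ± 0.23, adjusted p = 0.181). These 3 genes completed the set with an unadjusted p under 0.05.

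Among the regulators, Trp53 itself read 115, 124 and 107 CPM in AOS0 and 120, 124 and 144 in B+A0. Its fold change was 1.12 (95% interval 0.952 to 1.32). Mdm2 read 37.4, 36.6 and 40.3 CPM against 35.9, 38.1 and 35.2, a narrow spread in both groups. Ppm1d, the phosphatase that switches the damage signal off, stayed at 0.967 of the untreated level (0.797 to 1.17). None of the 5 regulators passed, and 4 of them had estimates below 0.

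Of the 6 genes for cell cycle arrest, none passed. Cdkn1a read 129, 121 and 141 CPM in AOS0, and 138, 99.1 and 92.1 in B+A0. The first busulfan library was inside the untreated range and the other two below it, so the groups overlapped; the 2 low libraries were those with low enterocyte markers. Ccng1, which encodes the cyclin G1 that recruits a phosphatase to Mdm2, read 69.0, 67.1 and 59.2 CPM against 60.5, 65.4 and 57.2. Btg2, an antiproliferative gene, read 46.2, 34.9 and 41.9 CPM against 34.6, 35.6 and 31.5 (log2 fold change −0.27 ± 0.13, adjusted p = 0.250). Gadd45a, Zmat3 and Plk2 had log2 fold changes of 0.11, 0.21 and −0.36.

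The death receptors gave no call. Fas, also a lymphocyte surface receptor, read 17.7, 19.6 and 22.0 CPM in AOS0, and 19.5, 10.2 and 12.4 in B+A0. Its log2 fold change was −0.49 ± 0.25 (adjusted p = 0.261). The 2 B+A0 libraries with low Fas had summed T and natural killer cell markers of 61.5 and 39.0 CPM, and enterocyte markers of 8500 and 8903 CPM. In the B+A0 library with Fas inside the AOS0 range, T and natural killer cell markers were at 105 CPM, below the 164 to 283 of AOS0. The part of these cells in the value of Fas was not tested. Tnfrsf10b, which encodes the mouse TRAIL receptor, read 11.6, 16.3 and 14.9 CPM against 14.6, 15.0 and 16.4. The other tested apoptosis genes, Pidd1, Perp, Ei24 and Apaf1, had log2 fold changes from −0.17 to 0.24.

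Phlda3, which encodes an inhibitor of Akt, held 1, 8 and 2 counts in AOS0 and 11, 5 and 9 in B+A0. Eda2r, a death receptor of the TNF receptor family, held 6, 4 and 1 counts against 1, 3 and 3. Both are among the most responsive p53 targets known in other mouse tissues. Here they were close to the limit of detection and were not tested.

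No gene of DNA repair and nucleotide supply passed: Ddb2 and Xpc, which recognise damage for nucleotide excision repair, had log2 fold changes of −0.19 and 0.20, the endonuclease gene Ercc5 −0.05, the translesion polymerase gene Polk −0.01 and the ribonucleotide reductase gene Rrm2b −0.43 (95% interval 0.499-fold to 1.11-fold). Sesn2, the paralogue of Sesn1, read 14.8, 12 and 11.6 CPM in AOS0 and 11.4, 13.8 and 12.5 in B+A0, a log2 fold change of −0.03 ± 0.14. The interval of Sesn2, from −0.32 to 0.27, did not reach the estimate for Sesn1. The secreted stress cytokine gene Gdf15 held 8, 9 and 6 counts in AOS0 and 12, 10 and 20 in B+A0, which allowed an interval as wide as 0.689-fold to 3.87-fold. Steap3, an iron reductase gene, was at 1.07-fold. The damage sensors Atm, Chek2 and Trp53bp1 lay between −0.13 and 0.09 on the log2 scale.

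**Figure D2:**
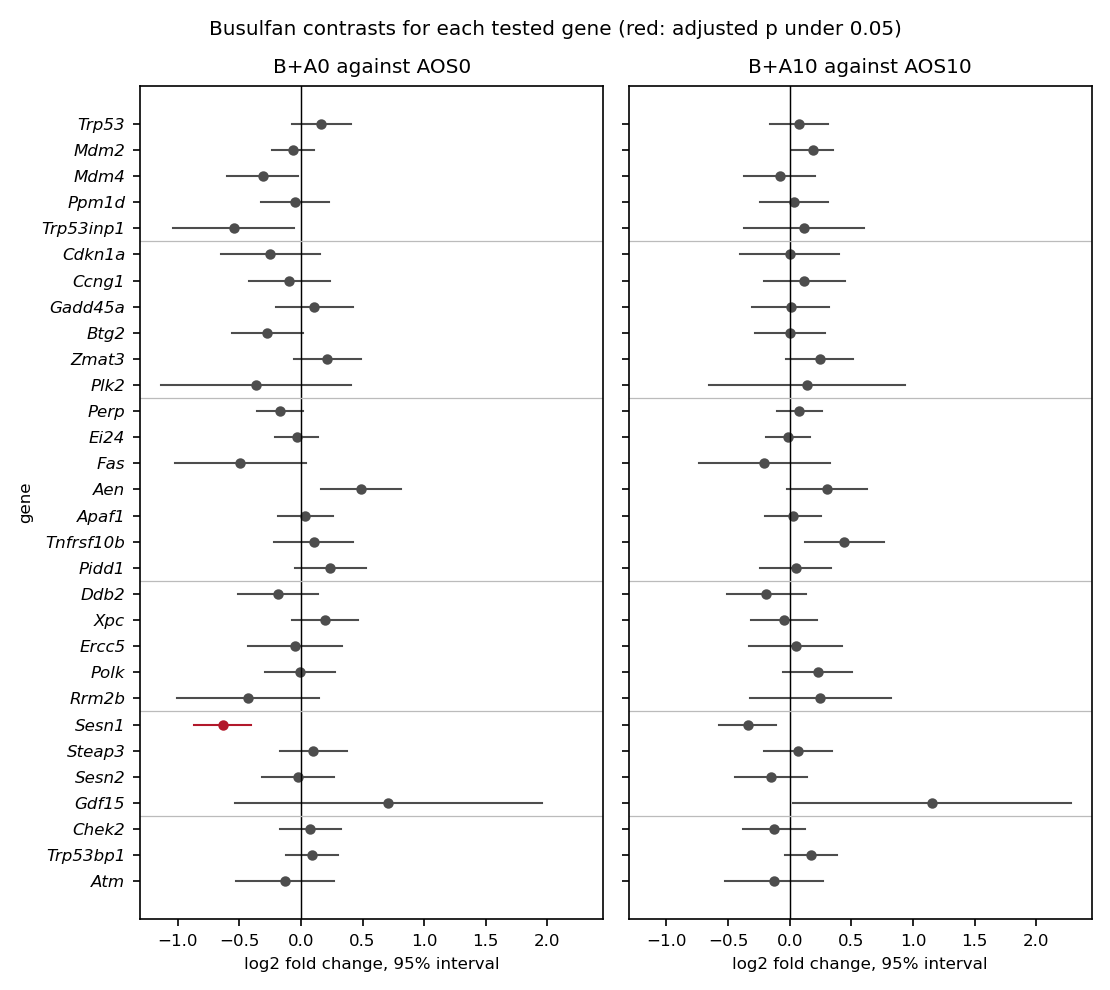
Log2 fold change (x axis) with its 95% interval for each of the 30 tested genes, busulfan against no busulfan at AOS level 0 (left) and 10 (right), with grey lines between roles. Sesn1 on the left, at −0.63, is the only interval drawn in red for an adjusted p under 0.05; Gdf15 has the widest interval.

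The same effect of busulfan in AOS-treated intestine (B+A10 against AOS10) rested on other libraries. None of the 30 genes passed in edgeR, DESeq2 or limma. Of all genes in this comparison 0.146% rose and 0.0162% fell. An unadjusted p under 0.05 was found for 4 of the 30, against 10.2% of all genes, and 5 of the 30 had groups that did not overlap, against 14.9%: Sesn1, Tnfrsf10b, Mdm2, Zmat3 and Polk. The median log2 fold change was 0.05 beside 0.00 for all genes.

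Sesn1 read 82.1, 92.5 and 94.4 CPM in AOS10, and 69.5, 64.1 and 78.7 in B+A10. Again every busulfan library was below every other one, at a log2 fold change of −0.34 ± 0.11 (adjusted p = 0.285). Its effect of busulfan at the AOS levels 0 and 10 differed by 0.29 on the log2 scale (95% interval −0.03 to 0.62, adjusted p = 0.740), so a difference between them was not shown.

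Tnfrsf10b read 16.5, 14.4 and 14.5 CPM in AOS10, and 24.3, 20.2 and 17.3 in B+A10, without overlap (0.44 ± 0.15, adjusted p = 0.302). Mdm2 read 35.9, 37.3 and 38.1 CPM against 42.3, 39.8 and 44.7, also without overlap, with an estimate of 1.14-fold that did not pass (95% interval 1.01 to 1.28, adjusted p = 0.442). Gdf15 held 17, 7 and 6 counts against 37, 25 and 8, so that one B+A10 library stayed within the AOS10 range (log2 fold change 1.16 ± 0.52, adjusted p = 0.470). These 3 genes and Sesn1 were the ones with an unadjusted p under 0.05. Cdkn1a was level between these groups, at 164, 164 and 155 CPM in AOS10 and 172, 199 and 112 in B+A10, a fold change of 1.00 (0.758 to 1.32).

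Of the other genes for which all library values are given, Trp53 read 134, 120 and 113 CPM in AOS10 against 146, 127 and 114 in B+A10. Btg2 read 49.1, 48.9 and 46.4 CPM against 52.7, 54.1 and 38.1, and Ccng1 51.6, 56.6 and 59.5 against 49.4, 52.2 and 80.6. Their ranges overlapped throughout. Trp53inp1 read 5.59, 5.90 and 5.21 CPM against 4.24, 6.19 and 7.67, and Sesn2 14.6, 13.7 and 13.8 against 14.6, 12.4 and 11.0. Phlda3 held 2, 4 and 4 counts against 9, 7 and 4, and Eda2r 4, 7 and 6 against 10, 6 and 13.

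Averaged over both AOS levels, busulfan moved 2 of the 30 genes: Sesn1 fell and Aen rose. Over all genes 2.73% fell and 3.3% rose in this contrast, and 23.6% had an unadjusted p under 0.05, against 5 of the 30. Sesn1 fell to 0.713 of the level without busulfan (95% interval 0.637 to 0.798, log2 fold change −0.49, SE 0.08, adjusted p = 0.00508). The 6 libraries with busulfan read 57.1 to 78.7 CPM and the 6 without it 82.1 to 106, so the 2 sets did not overlap. That call held when any single library was left out, under DESeq2, limma and the replicate block. Without both B+A0 libraries that stand apart the log2 fold change was −0.40 and the adjusted p was 0.0836.

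Aen, at chr7:78895927-78911209, rose 1.32-fold (1.12 to 1.54, log2 fold change 0.40, SE 0.11, adjusted p = 0.0464). Its libraries read 23.4 to 27.8 CPM without busulfan and 27.2 to 42.7 with it, so they overlapped by 1 busulfan library, B+A10 replicate 2. The call was close to the threshold: the adjusted p was 0.0621 to 0.102 without any one of the AOS0 and AOS10 libraries, B+A0 replicates 2 or 3, or B+A10 replicate 1, and 0.327 without both B+A0 libraries that stand apart. Tnfrsf10b (0.27, adjusted p = 0.134), Zmat3 (0.23, adjusted p = 0.138) and Gdf15 (0.93, adjusted p = 0.161) had an unadjusted p under 0.05. Zmat3, which encodes an RNA-binding protein, read 11.8, 12.5 and 16.1 CPM in AOS0 and 12.6, 12.4 and 14.6 in AOS10. It read 15.9, 15.9 and 14.9 CPM in B+A0 and 15.9, 15.0 and 15.9 in B+A10, a range of 1 CPM that lay below the highest untreated library. Paneth cell markers moved beside these genes: 6 of 6 had estimates above 0, none passed, and they summed to 3279 to 4989 CPM in AOS0 and 5793 to 7228 in B+A0, while AOS10, at 2753 to 6076, and B+A10, at 5226 to 5972, overlapped. Their part in the levels of Aen and Zmat3 was not tested.

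**Figure D3:**
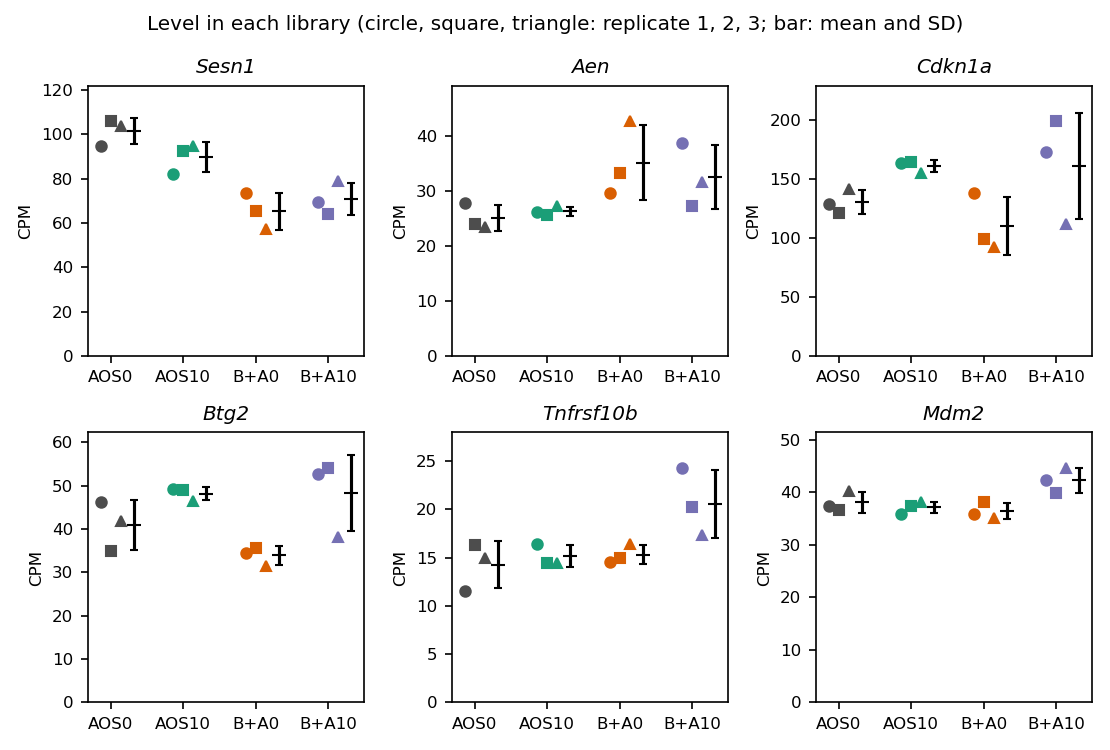
CPM of Sesn1, Aen, Cdkn1a, Btg2, Tnfrsf10b and Mdm2 in each library by group (circle, square and triangle for replicates 1, 2 and 3), with the mean and SD of each group as bars and axes from 0. Sesn1 in the 6 busulfan libraries, 57.1 to 78.7 CPM, lies below all 6 others, while Cdkn1a spreads from 112 to 199 CPM within B+A10.

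Whether AOS changed these genes after busulfan was asked by B+A10 against B+A0. No gene of the 30 passed in edgeR, DESeq2 or limma, and 0% of all genes rose or fell in edgeR, with 82 called by DESeq2. There were 4 of the 30 with an unadjusted p under 0.05, against 9.81% of all genes, and 4 whose groups did not overlap, against 10.2%: Btg2, Tnfrsf10b, Mdm2 and Polk. The 4 with a low p were Btg2, Cdkn1a, Tnfrsf10b and Mdm2, all with estimates above 0. The median log2 fold change was 0.04 beside 0.01 for all genes. This comparison shares B+A0 with busulfan alone against untreated, and B+A10 with the comparison in AOS-treated intestine.

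Btg2, at 34.6, 35.6 and 31.5 CPM in B+A0 and 52.7, 54.1 and 38.1 in B+A10, had a log2 fold change of 0.51 ± 0.13 (fold 1.42, 95% interval 1.17 to 1.74, adjusted p = 0.280). Left without B+A10 replicate 3, its lowest library, Btg2 passed at 0.65 (adjusted p = 0.0283). Cdkn1a had 0.55 ± 0.19 (fold 1.47, 1.11 to 1.94, adjusted p = 0.383); B+A10 replicate 3, at 112 CPM, lay inside the B+A0 range of 92.1 to 138. Without both B+A0 libraries that stand apart the estimate for Cdkn1a was 0.22 (adjusted p = 0.998). Tnfrsf10b and Mdm2 had 0.43 ± 0.15 (adjusted p = 0.383) and 0.21 ± 0.08 (adjusted p = 0.412), both without overlap. Beside these estimates, all 11 T and natural killer cell markers had estimates above 0, with a median of 1.12, and all 8 enterocyte markers too, with a median of 0.38; none of them passed, and their part in the values of the 4 genes was not tested.

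AOS alone against untreated intestine (AOS10 against AOS0) gave no call among the 30 in edgeR, DESeq2 or limma, and 0% of all genes passed in edgeR, with 63 called by DESeq2. Perp alone had an unadjusted p under 0.05 (6.23% of all genes did), at 203, 198 and 221 CPM in AOS0 and 186, 183 and 174 in AOS10 (log2 fold change −0.20 ± 0.09, adjusted p = 0.798). The groups did not overlap for 4 genes, against 20.7% of all genes: Perp and Sesn1 were below, and Cdkn1a and Btg2 above, the untreated range. Cdkn1a lay at 121 to 141 CPM in AOS0 and 155 to 164 in AOS10, a fold change of 1.23 (0.935 to 1.63). The median log2 fold change was −0.01, the same as for all genes.

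The interaction asks whether the effect of busulfan differed between the AOS levels. No gene passed in edgeR, DESeq2 or limma among the 30, and 0% of all genes did in edgeR, with 17 called by DESeq2. Mdm2 was the single gene with an unadjusted p under 0.05, against 6.85% of all genes, at a log2 difference of 0.25 ± 0.11 (95% interval 0.01 to 0.49, adjusted p = 0.692). The median was 0.09 beside 0.01 for all genes, and 20 of the 30 estimates were above 0. Intervals here were wide: that of Cdkn1a ran from 0.802-fold to 1.76-fold and that of Trp53inp1 from 0.978-fold to 2.55-fold.

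**Figure D4:**
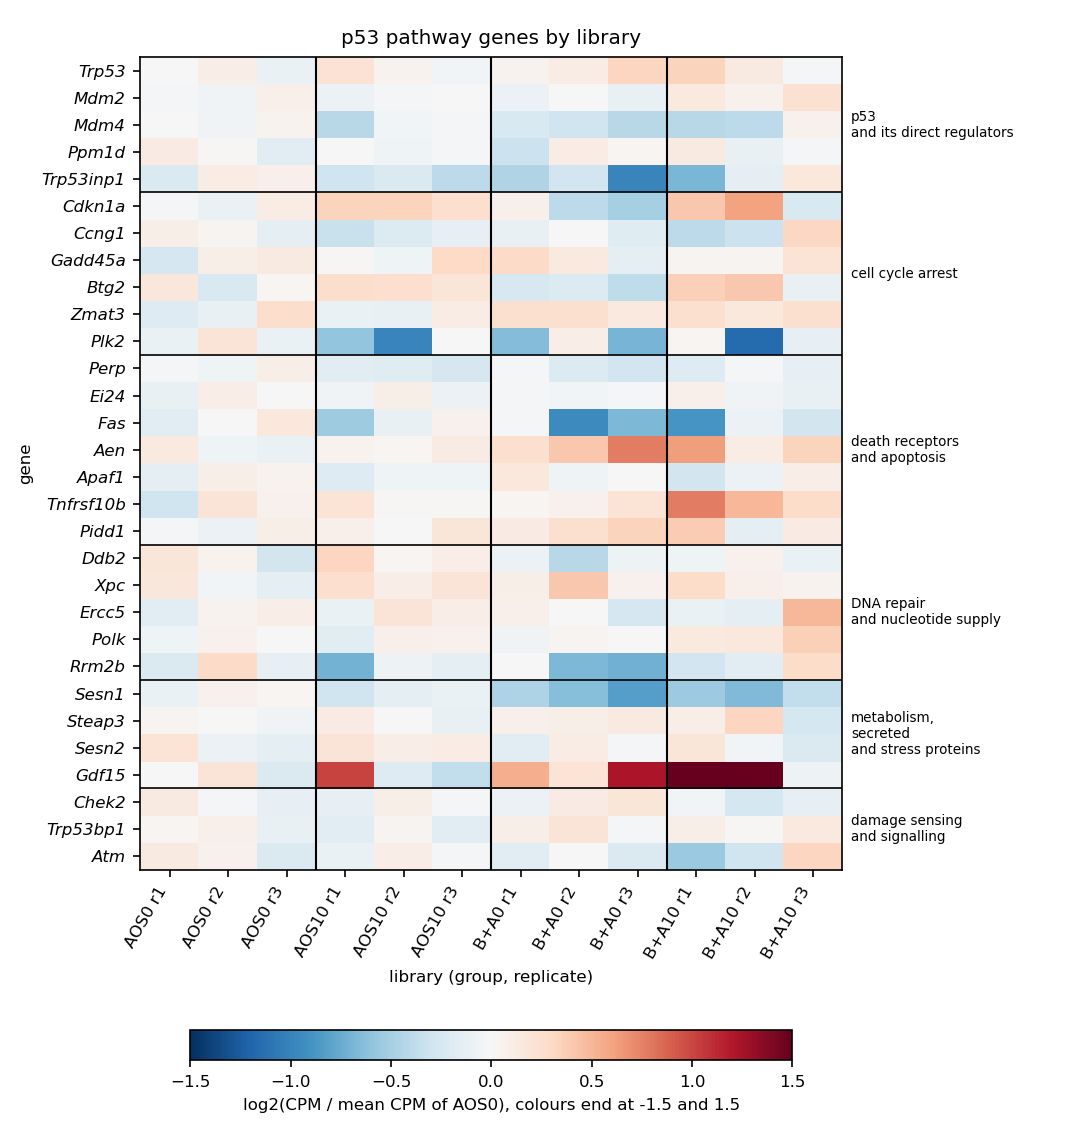
Log2 of CPM over the mean CPM of AOS0 for the 30 tested genes (rows, by role) in the 12 libraries (columns, by group); colours end at −1.5 and 1.5. Sesn1 is blue in all 6 busulfan libraries, and most other rows stay pale, with Gdf15 the most saturated.

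Cdkn1a and Btg2 moved together from library to library. Over the 12 libraries the log2 CPM of the 2 genes had a Pearson r of 0.883 (permutation p = 0.00012, two-sided, adjusted p = 0.00348 over the 29 relations of Cdkn1a with the other tested genes). Spearman's rho was 0.888 (permutation p = 0.00026, adjusted p = 0.00754). Without the 2 libraries farthest from the median of Cdkn1a, B+A0 replicate 3 and B+A10 replicate 2, r was 0.799, and for deviations from the group means it was 0.741. The permutations shuffled all 12 libraries regardless of group, so differences between groups enter the p-values. No p-value was computed for deviations from the group means. Btg2 was the only one of the 29 to pass. Enterocyte markers differed between the same libraries: their sum was lowest, at 8500, 8903 and 10833 CPM in B+A0 replicates 2 and 3 and B+A10 replicate 3, where Cdkn1a was 99.1, 92.1 and 112 CPM, and highest, at 18629, in B+A10 replicate 2, where Cdkn1a was 199 and Btg2 54.1 CPM. In B+A0 replicate 1 the sum was high, at 16743, with Cdkn1a at 138 and Btg2 at 34.6 CPM. Their part in the relation was not tested.

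The correlation of Ccng1 with Cdkn1a was negative and did not pass, with an r of −0.638 (permutation p = 0.0246, adjusted p = 0.308) and a rho of −0.713. Without the same 2 libraries r was −0.827, and for deviations from the group means −0.727, close in size to the values of Btg2. Its highest library, B+A10 replicate 3 at 80.6 CPM, was the lowest B+A10 library for Cdkn1a. Mdm2 had an r of 0.174 (adjusted p = 0.836 by permutation). For deviations from the group means, Steap3 reached 0.684 and Atm −0.682. All points share the library and its depth, and the labels name no batch within which the relation could be repeated.

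**Figure D5:**
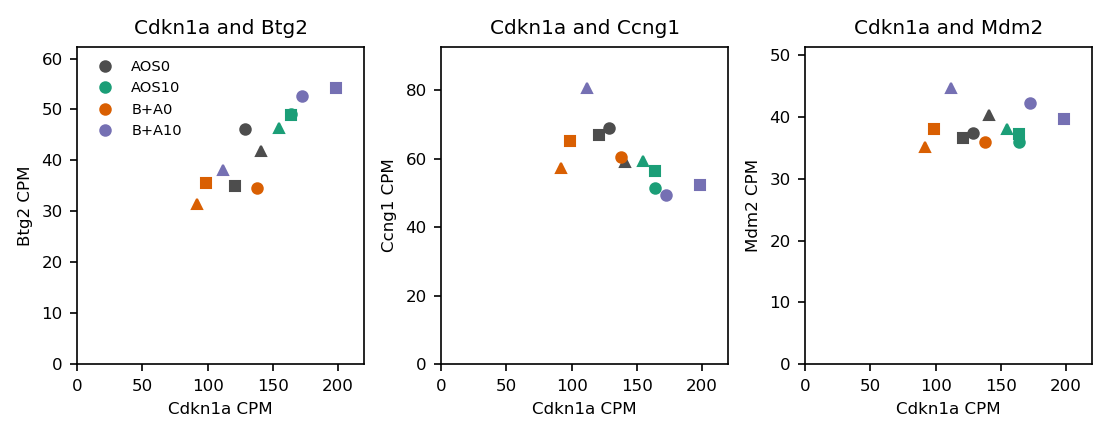
CPM of Btg2 (left), Ccng1 (middle) and Mdm2 (right) against CPM of Cdkn1a in the 12 libraries, coloured by group, with the replicate as the symbol. Btg2 climbs with Cdkn1a (r = 0.883 on log2 values), Ccng1 has a negative r of −0.638 that did not pass, and Mdm2 stays between 35.2 and 44.7 CPM.

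Other genes of the pathway were read from 3 further lists. Of 40 other p53 targets, 38 were in the table and 31 were tested, and 3 rose and 1 fell with busulfan alone, the same comparison in which 1.7% and 1.94% of all genes did. Sfn, which encodes 14-3-3 sigma, an inhibitor of mitotic entry, rose from 155, 174 and 171 CPM in AOS0 to 249, 246 and 302 in B+A0 (log2 fold change 0.67 ± 0.11, adjusted p = 0.0125). Trp53i11 rose by 0.69 ± 0.14 (adjusted p = 0.0273), and Tigar, which encodes a regulator of glycolysis, by 0.57 ± 0.14 (adjusted p = 0.0406). Pmaip1, the apoptosis gene known as Noxa, fell by 0.59 on the log2 scale (adjusted p = 0.0461), from 28.2, 27.3 and 30.5 CPM to 24.3, 18.2 and 14.5. Each of these calls was lost when either of at least 2 libraries was left out: that of Sfn had an adjusted p of 0.0578 with B+A0 replicate 3 left out and 0.0600 with AOS0 replicate 1 left out, that of Trp53i11 without these or AOS0 replicate 3 (0.0866 to 0.128). For Tigar and Pmaip1 only the fit without B+A0 replicate 1 kept the call, and without the others the adjusted p was 0.0902 to 0.143 for Tigar and 0.0909 to 0.174 for Pmaip1.

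Busulfan averaged over both AOS levels raised 4 of these 31 genes and lowered none, where 3.3% and 2.73% of all genes were called: Sfn by 0.66 (adjusted p = 0.00136), Tigar by 0.62 (0.00508), Trp53i11 by 0.51 (0.0159) and Ccnk, a cyclin gene, by 0.23 (0.0470). In AOS-treated intestine, where 0.146% of all genes rose, Sfn alone did so, from 180, 159 and 179 CPM to 309, 251 and 250 (0.64, adjusted p = 0.0451). For the average, Sfn kept its call without any single library and without both B+A0 libraries that stand apart (adjusted p = 0.0179). Of the genes called on average here, no other kept its call without both. Tigar read 13.1 to 13.2 CPM in AOS0 and 13 to 13.9 in AOS10, and 17.7 to 21.1 in B+A0 and 18.6 to 26.9 in B+A10. The call of Ccnk was lost without any one of the AOS0 and AOS10 libraries, B+A0 replicates 2 or 3, or B+A10 replicate 1 (adjusted p 0.0533 to 0.107). That of Sfn in AOS-treated intestine was lost without B+A10 replicate 1 or any one AOS10 library (0.144 to 0.227). None of the 31 passed in edgeR for AOS after busulfan, AOS alone or the interaction. The unadjusted p was under 0.05 for 6, 2 and 3 of them (9.81%, 6.23% and 6.85% of all genes). Trp53i11 read 106 to 132 CPM in B+A0 and 69.1 to 82.3 in B+A10, inside the 58.9 to 85.3 of AOS0. Its averaged rise was thus seen mainly in B+A0. Pmaip1 read 14.5 to 24.3 CPM in B+A0 and 26.6 to 29.4 in B+A10.

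All 32 other genes of damage signalling were tested, and 1 fell with busulfan alone (1.94% of all genes) while 1 fell and 1 rose on average (2.73% and 3.3%). Usp28, a deubiquitinase gene of the checkpoint, fell with busulfan alone, from 13.2, 12.1 and 14.3 CPM to 8.66, 8.52 and 8.49 (log2 fold change −0.63 ± 0.12, adjusted p = 0.0218), and on average (−0.50, adjusted p = 0.00852). The first of these calls was lost without AOS0 replicates 1 or 3 or B+A0 replicates 2 or 3 (adjusted p 0.0654 to 0.102), and the second without both B+A0 libraries that stand apart (0.120). Parp1, which encodes the sensor of strand breaks, rose on average by 0.26 (adjusted p = 0.0376), and lost its call without any one of AOS0 replicates 1 and 3, the AOS10 libraries, B+A0 replicates 2 and 3 or B+A10 replicate 1 (0.0528 to 0.0905). Dyrk2, a p53 kinase gene, had −0.33 with busulfan alone (adjusted p = 0.0572) and 0.44 for AOS after busulfan (adjusted p = 0.251). In the AOS comparisons none of the 32 passed in edgeR, with 3 at an unadjusted p under 0.05 after busulfan (9.81% of all genes) and 1 for AOS alone (6.23%), while DESeq2 called 2 after busulfan, Dyrk2 and Hipk2, both higher.

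The third list held 25 cell cycle genes that p53 and p21 are known to repress. None passed in any of the 6 comparisons in edgeR, and the unadjusted p was under 0.05 for 4 with busulfan alone (22.1% of all genes), 1 in AOS-treated intestine (10.2%) and 5 on average (23.6%). It was so for 6 in AOS after busulfan (9.81% of all genes), 5 in AOS alone (6.23%) and 0 in the interaction (6.85%). DESeq2 called 1 of them, Cdc25c, lower with busulfan on average. The median log2 fold change was 0.05 with busulfan alone, −0.20 for AOS after busulfan, with 22 of the 25 estimates below 0, and −0.16 for AOS alone, with 23 below 0. For all genes these medians were −0.01, 0.01 and −0.01. The 25 were measured in the same libraries, so their estimates are not separate observations. Mki67 and Top2a are both among the 25 and among the 7 crypt stem and dividing markers, so these sets are not separate. Of the 7 markers, 4 were below 0 for AOS after busulfan (median −0.0003). For AOS alone 5 were (median −0.09). The part of dividing cells in the list was not tested. Ccnb1, the cyclin of mitotic entry, had −0.34 (adjusted p = 0.284) and −0.36 (adjusted p = 0.316) in these AOS comparisons. Among the 32 other damage signalling genes, 27 had estimates below 0 for AOS alone, with a median of −0.10 beside −0.01 for all genes. Chek1 and Cdc25c are on both lists, and the 32 too were measured in the same libraries. The share of all genes below 0 was not counted.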

How the data were processed

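RNA of the 12 libraries was deposited as 1 table of 16942 genes with 2 values per gene and library. The read counts, named so per the file headers, are expected counts that the authors did not normalize: between 8.90% and 9.33% of them differed from a whole number by over 1e-06, and all were rounded. The second deposited value was taken as FPKM; no unit stands in the header, and for 5071 genes above 500 counts in every library, dividing count by value gave a median in proportion to the library's total, to within 0.238%. Per the submitters' processing notes the build is mm10. The aligner, the counter, its annotation and its use of strand: not given in the sources used here. Reads of overlapping or antisense genes may therefore be mixed. Left out were 8 columns of group means.

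Tests ran in edgeR 4.0.16 under R 4.3.3: filterByExpr, TMM scaling (factors 0.969 to 1.05), 1 quasi-likelihood fit of 4 groups, and Benjamini-Hochberg adjustment over 12329 genes at 0.05. CPM uses TMM-scaled totals. Intervals are 95%, and the fit was tested on simulated counts. Contrasts were busulfan at each AOS level, their average, AOS at each busulfan state, and the interaction. Alternatives were DESeq2 1.42.0, its size factors in edgeR, other filters (none, or 10 counts in every library), a replicate block, the 2 groups alone, single libraries left out, and limma 3.58.1 on log2(FPKM + 1) and log2(FPKM + 0.1). Correlations used 100000 permutations of all libraries, regardless of group. Replicate pairs differed beyond sampling noise (chi-square per degree of freedom 8.28 to 35.4). Figures were drawn with matplotlib 3.10.9. Promoters are from RefSeq.

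The genes and all lists were chosen with earlier results of these data known. Library values are given for genes with an unadjusted p under 0.05 in a comparison and for Trp53, Mdm2, Cdkn1a, Ccng1, Trp53inp1, Sesn2, Gdf15, Btg2, Phlda3 and Eda2r; from the further lists every called gene, and up to 4 with the smallest p, could be named. Aen was moved from the regulators to the apoptosis genes after its values were seen.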

Additional observations from a re-analysis of the deposited data

How the results depend on the processing

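Of the 517 refitted values of single genes, 0 reversed, 429 stayed on their side of the threshold, 84 lost it and 4 gained it. Refits covered, per comparison, only those of the 30 with an unadjusted p under 0.05 and the called genes of the further lists. That choice made a reversal unlikely beforehand. Genes not called in the main fit had no call to lose, so the 84 came from fewer than 517 values. For busulfan alone, 1 of the 30 genes was called; DESeq2 called 2 (Sesn1 and Aen), leaving out single libraries gave 0 to 2, and leaving out both B+A0 libraries that stand apart, chosen after seeing the data, gave 0. For busulfan averaged over both AOS levels 2 were called; limma gave 1 with either pseudocount, single libraries left out gave 1 to 4, and both B+A0 libraries left out gave 0. The 4 appeared without B+A10 replicate 3, where Gdf15 (1.14, adjusted p = 0.0432) and Mdm4 joined. For AOS after busulfan, 0 became 1 without B+A10 replicate 3 (Btg2), a range of 0 to 1. The counts of the other comparisons stayed at 0 throughout. The filters, DESeq2 size factors and the 2-group fits changed no count of the 30, and no setting moved the median of all genes past −0.05 or 0.04.

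The replicate block lowered the averaged count from 2 to 1, since Aen reached an adjusted p of 0.0708, and left the others. Replicate numbers did not pair the libraries: same-number deviations correlated at −0.238 to 0.246, with 4 of 18 pairs over 0.1. Over all genes, DESeq2 called 1025 genes for busulfan alone (edgeR 449, block 193, 2 groups alone 241), 138 in AOS-treated intestine (20; block 3, 2 groups alone 0, limma 2 and 7, no filter 40) and 1273 on average (743; block 386). Where edgeR called 0, the block called 4 for AOS after busulfan and 15 for AOS alone, no filter 5 and 8, and the 2 groups alone 62 for AOS alone. Leaving out single libraries moved the all-gene counts, and so the shares printed beside the genes, for busulfan alone between 21, with B+A0 replicate 3 left out, and 1099, when replicate 1 of that group was dropped, 0 to 61 in AOS-treated intestine, 250 to 1395 on average, 0 to 51 for AOS after busulfan and 0 to 13 for AOS alone; without both B+A0 libraries that stand apart they were 0 for busulfan alone and 38 on average. With 165 counts over all libraries, Gdf15 was limited by depth.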
